A study of Mus musculus with 65 samples.

Results

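The cytokine, interferon and immune receptor genes formed a set of 37 among the 4209 genes that carried a single symbol on this cDNA filter, and 41 spots represented them. They were taken by symbol: class I and class II major histocompatibility complex (MHC) genes, interferon-induced genes and interferon receptors, interferon regulatory factors, STATs, interleukins and their receptors, chemokines, TNF and NF-kB family names, and genes with a CD number other than Cd9 and Cd63. The rule uses symbols and no measured value. All 37 symbols were found unchanged in the RefSeq annotation. No single-symbol spot matched the patterns for beta-2 microglobulin, Toll-like receptors or C-C chemokine receptors. A CD number alone also brought in surface glycoproteins that are not restricted to immune cells, such as Cd34, Cd164 and Cd320, and these are described as a group of their own.

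Class I MHC molecules carry peptides from inside the cell to CD8 T cells, and class II molecules, loaded with the help of the invariant chain and H2-DM, present peptides to CD4 T cells. Type I interferons act through STAT proteins and Irf9, and interferon gamma through a receptor that includes Ifngr2; both raise the transcription of antiviral and antigen-presenting genes. In the healthy spinal cord these pathways run at a low level, mainly in microglia and in cells of the vessels and meninges, and a higher level of them is a well-known feature of aged nervous tissue and of inflammation.

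Spinal cords of C57BL/6 mice of both sexes were hybridized singly, 1 filter to a mouse. Juvenile mice fed ad libitum (AL) were 17 to 44 days old (n = 10). Adults under caloric restriction (CR) and adults fed AL were compared at 6 months (8 CR mice of 174 to 194 days, 10 AL mice of 169 to 194 days), at 16 months (10 CR mice of 472 to 499 days, 10 AL mice of 476 to 499 days) and at 24 months (7 CR mice of 673 to 743 days, 10 AL mice of 704 to 743 days). The CR mice received full regular feed to 13 weeks of age, then fortified feed at 90% for 1 week, at 75% for 1 week and at 60% until death; all mice came from 1 colony and were housed singly. Sexes were balanced at 5 and 5 in every AL group and at 16 months CR, against 3 males and 5 females at 6 months CR and 3 males and 4 females at 24 months CR. Both sexes had equal weight in every comparison of age or diet. In the oldest CR group each male had reached only 673 days, below the 714 to 743 days of its AL counterparts. Diet was thus not separated from age among the males of that group, and the effect of this gap was not tested. The comparisons of age under CR that end at 24 months rest on the same males.

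Every value is a Z score: the distance of a spot from the mean of all spots of its filter, in units of their SD, so 0 is the filter's mean and 1 its SD. A change shared by most transcripts cannot be seen on this scale, and in whole tissue fewer cells of a type and less RNA per cell cannot be told apart. Z scores of different spots do not rank their transcripts by amount, because clones differ in length and labelling. No counts or depths exist for these filters, and the number of mice limits the precision.

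The filters did not all behave alike. Numbers 31 to 33, which came from 2 CR mice and 1 AL mouse at 6 months, were left out beforehand and given no run. The first principal component of all spots over the other 62 filters held 36.0% of the variance. On it, those numbered 22 to 43, 66 and 67 in the labels stood apart from the rest. They are called the second run (21 filters), against the first run (41 filters). The second run held 6 of 10 AL mice at 24 months but 1 of the 9 AL mice at 6 months that belonged to a run. For the immune genes the median absolute difference between the runs was 0.0891 Z, against 0.0655 Z over all rows, and 6 of the 37 (16.2%) did not overlap between the runs, beside 4.97% of all rows. These were Cd82, Cxcl12, Ifitm2, Il27ra, Il3ra and Irf2bpl. Ifitm2 averaged 1.41 ± 0.171 in the second run and 2.02 ± 0.0824 in the first, and Cd82 averaged -0.0379 ± 0.0552 in the second run and -0.690 ± 0.193 in the first (SD, n = 21 and 41). No label names a run or a batch, and the runs were inferred from the values of the spots. Since they were recognized on the same spots, these differences between the runs are descriptions with no test. Filter 33, an AL male of 6 months, lay outside the range of the 62 filters of the runs for 20 of the 37 genes, against 66.1% of all rows. Differences are therefore also given run-adjusted, that is, from a fit that holds a term for the run and leaves out filters 31 to 33.

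**Figure D1:**
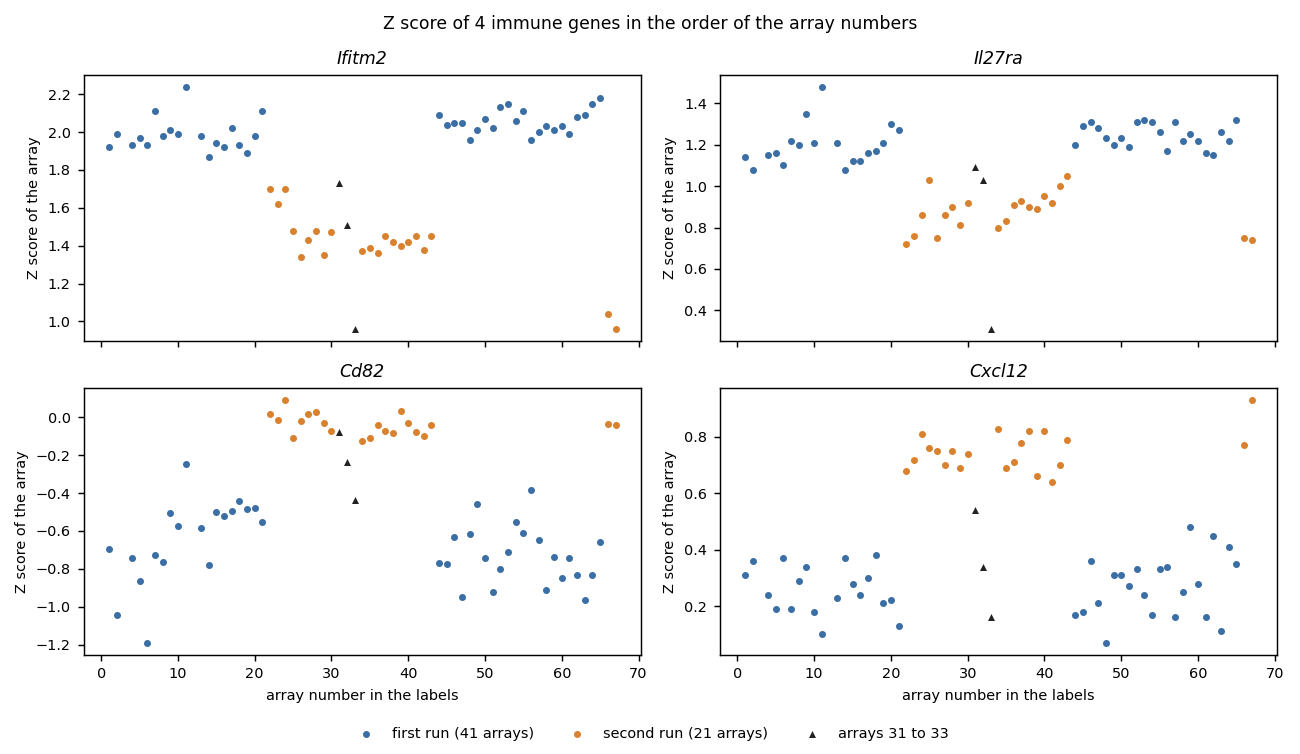
Z score (vertical axis) of Ifitm2, Il27ra, Cd82 and Cxcl12 on each of the 65 filters against the filter's number in the labels; each point is 1 mouse, blue for the first run, orange for the second run and black triangles for filters 31 to 33. For all 4 genes the orange points do not overlap the blue ones, and the second run minus the first was -0.611 Z for Ifitm2 and 0.652 Z for Cd82.

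The mean Z scores of the 37 genes over the 65 filters ran from -1.84 for Il17rc to 2.33 for Tnfaip1. The 8 brightest spots were those of Tnfaip1, H2-K1 (1.85), Cd34 (1.81), Ifitm2 (1.80), Cd244a (1.40), Il3ra (1.22), Ccl27a (1.19) and Ifngr2 (1.12). The 8 dimmest were those of Il17rc, Cd99l2 (-1.30), H2-DMa (-1.04), Tnfrsf19 (-0.800), Cd160 (-0.793), Cd320 (-0.781), Il18 (-0.694) and Irf2bpl (-0.653). The spread between mice of one group differed widely among the genes. The residual SD was smallest for Ifngr2 (0.0616 Z, wider than that of only 0.270% of all rows) and largest for Il17rc (0.377 Z), with a median of 0.146 Z for the 37 genes and 0.146 Z for all rows. After run adjustment the median for the 37 genes was 0.0904 Z.

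**Figure D2:**
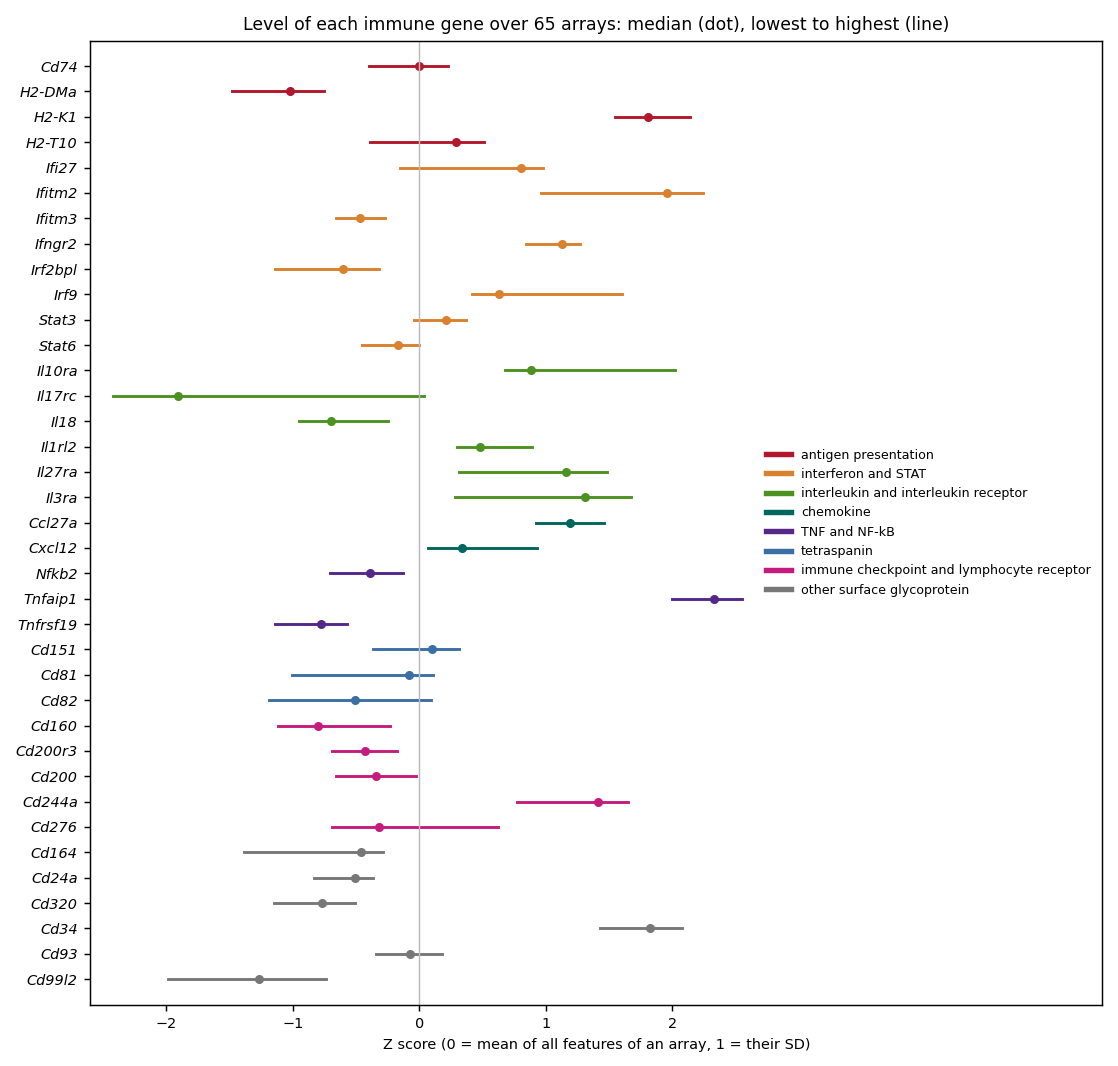
Median Z score (dot) and the lowest to the highest Z score (line) of each of the 37 genes over 65 mice, grouped and colored by role; the horizontal axis is the Z score, with 0 the mean and 1 the SD of all spots of a filter. Ifngr2, between 0.840 and 1.27, varied little, whereas Il17rc lay between -2.42 and 0.0400.

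Cd82, Stat3 and Cd24a had more than 1 spot, and the spots of each were averaged. The spots of Cd82, the metastasis suppressor tetraspanin KAI1, averaged -1.59 and 0.671, and their deviations from the group means correlated at r = 0.820 over the 65 filters. The 3 spots of Stat3 averaged 0.962, 0.295 and -0.664, with correlations of 0.555, 0.200 and -0.0948. The 2 spots of Cd24a averaged -0.718 and -0.327, with a correlation of 0.0125. The averages of Stat3 and Cd24a thus stand for clones whose values did not move closely together. These correlations describe the filters and carry no p, since all spots of a filter share its hybridization.

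Immune genes did not pass the test in any comparison. In the limma fit to all 7782 rows (genes, and unnamed spots as rows of their own), 0 of the 37 had a Benjamini-Hochberg adjusted p under 0.05 in each of the 15 comparisons of age, diet and sex. The percentages of all rows called were as low: 0.141% for 6 months against juvenile, 0.0257% for 16 against 6 months AL, 0.0643% for 24 against 6 months AL, 0.0257% for 24 against 6 months CR, 0.0257% for CR against AL at 6 months, 0.0129% for CR against AL over the 3 ages, and 0% in the other 9 comparisons. The smallest adjusted p of an immune gene was 0.338. A t-test between the groups after the same adjustment, run in 11 of the comparisons, called 0 of the 37 as well. In the run-adjusted fits again 0 of the 37 passed in any of the 15 comparisons, beside 0% to 0.244% of all rows, and the smallest adjusted p was 0.137 (Il10ra, CR against AL at 24 months). In the fit without a term for the run, the 95% interval from 6 to 24 months AL lay within 0.3 Z of 0 for 29 of the 37 genes. For CR against AL over the 3 ages it did so for 36 of 37. The limit of 0.3 Z was set by hand and is wide beside the median residual SD of 0.146 Z. The complement chain C1qa, outside the 37 genes, passed between 24 and 6 months AL with a smaller difference (0.286 Z, limma adjusted p = 0.0436). The runs were unevenly spread over these ages, so the intervals do not bound a change with age alone. The p-values of the fit without a term for the run measure the spread between mice of a group, each on 1 filter. This spread includes the difference between the runs and the values of filters 31 to 33. Of the 83 differences named here, 48 moved by over 1.5 times or turned sign when some single mouse was left out, 28 of them without the AL male of filter 33 and 9 without the CR male of filter 31.

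**Figure D3:**
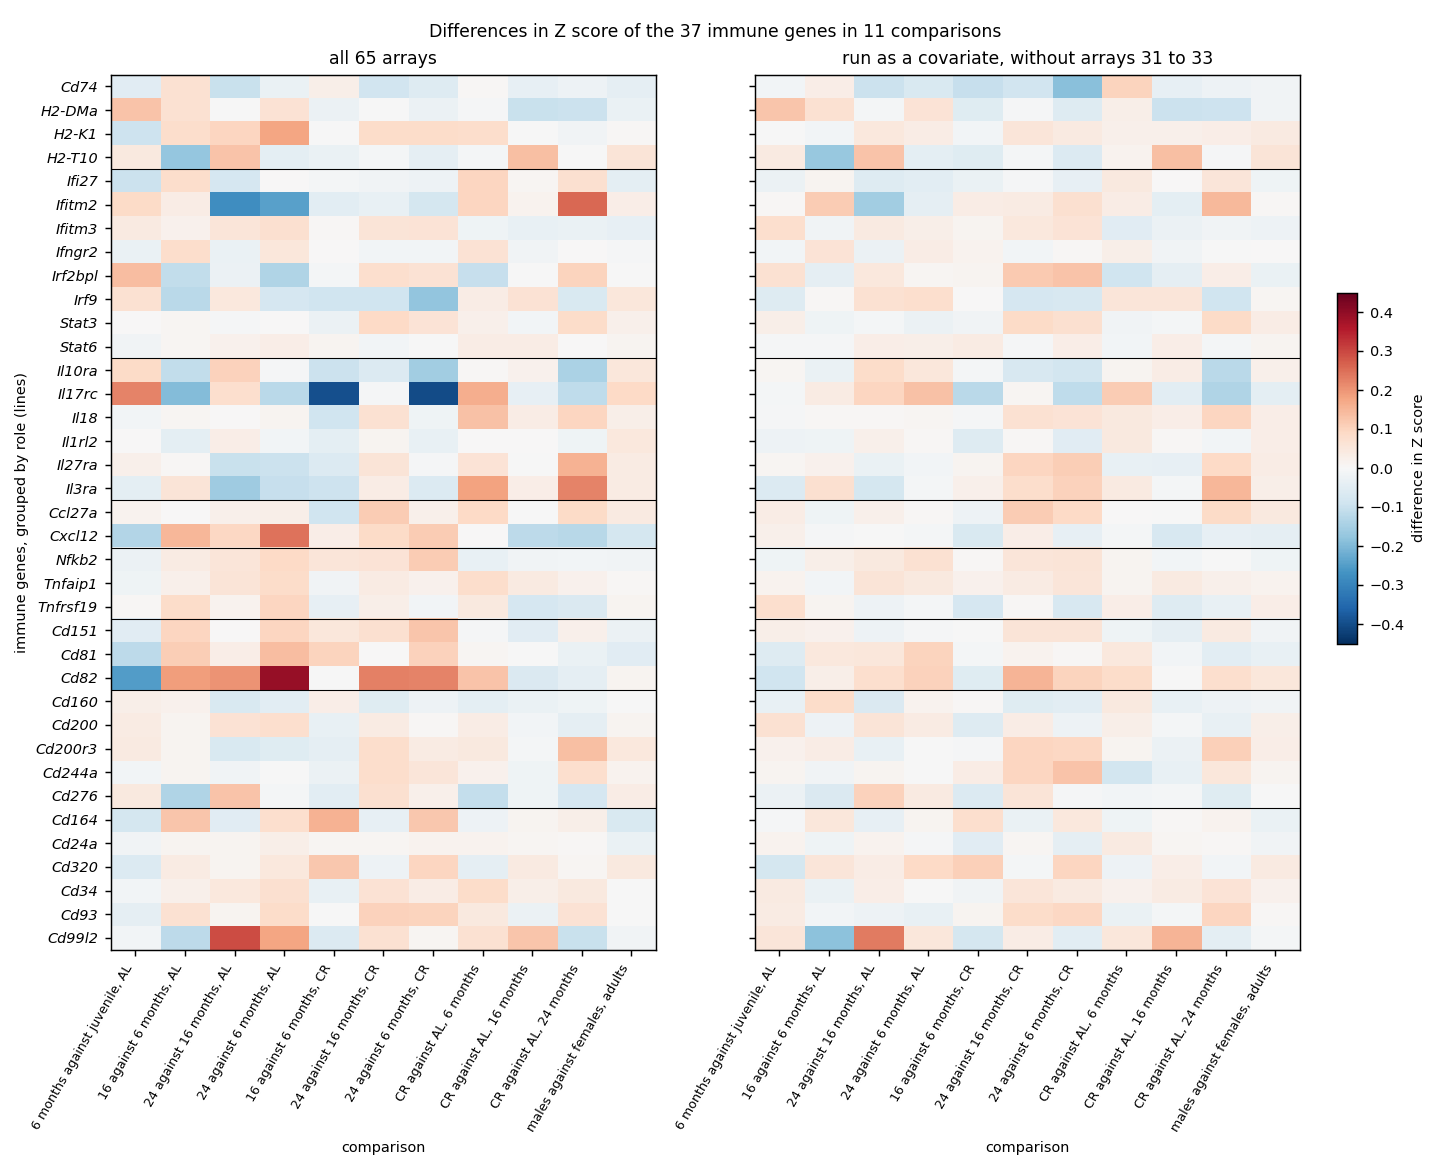
Difference in Z score (color, red higher and blue lower in the first-named group) of the 37 immune genes (rows, grouped by role) in 11 comparisons (columns), on all 65 filters at left and run-adjusted at right. The strongest colors at left are those of Il17rc under CR and of Cd82 under AL. Il17rc is at -0.401 for 24 against 6 months CR and at -0.396 for 16 against 6 months CR. Cd82 is at 0.391 for 24 against 6 months AL. These are paler at right, where they are -0.116, -0.123 and 0.103 in this order.

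Between 24 and 6 months under AL feeding, 23 of the 37 genes had a positive difference and 14 a negative one. The median of the 37 was 0.0255 Z, beside -0.00300 Z over all rows. At an unadjusted p under 0.05, 4 of the 37 (10.8%) were found, Cd82, H2-K1, Cxcl12 and Ifitm3, beside 13.0% of all rows. All 4 differences were positive, beside 6.67% of all rows with a positive and 6.35% with a negative one at this p. After run adjustment 1 of the 37 was found (Cd81), beside 3.74% of all rows, and the median of the 37 was 0.00880 Z.

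Among the tetraspanins, membrane proteins that gather receptors and integrins into microdomains, Cd82 had the largest difference of the set. Its Z scores had a lowest, median and highest value of -0.780, -0.0575 and 0.0300 in the 10 AL mice of 24 months, against -1.19, -0.682 and -0.125 in the 10 AL mice of 6 months. Of the older mice 9 of 10 lay above the mean of the younger, but the groups overlapped. The difference was 0.391 ± 0.154 Z (SE, limma adjusted p = 0.338), and both spots had a positive one, 0.618 ± 0.267 and 0.165 ± 0.0491 Z (SE). Within the first run it was 0.120 Z (4 mice of 24 months against 8 of 6 months), within the second 0.103 Z (6 against 1), and run-adjusted 0.103 Z (unadjusted p = 0.188). Cd81, a partner of several lymphocyte receptors, averaged -0.0510 ± 0.115 in AL mice of 24 months and -0.190 ± 0.292 in those of 6 months (SD, n = 10 each); the lowest mouse of 6 months, at -1.01, was that of filter 33. Its difference of 0.139 ± 0.0772 Z (SE, adjusted p = 0.427) became 0.0988 Z after run adjustment, the only one of the 37 then under an unadjusted p of 0.05 (0.0115, adjusted p = 0.997). Cd151, which binds laminin-receptor integrins, differed by 0.0970 ± 0.0526 Z (SE, adjusted p = 0.418) and run-adjusted by -0.00391 Z.

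**Figure D4:**
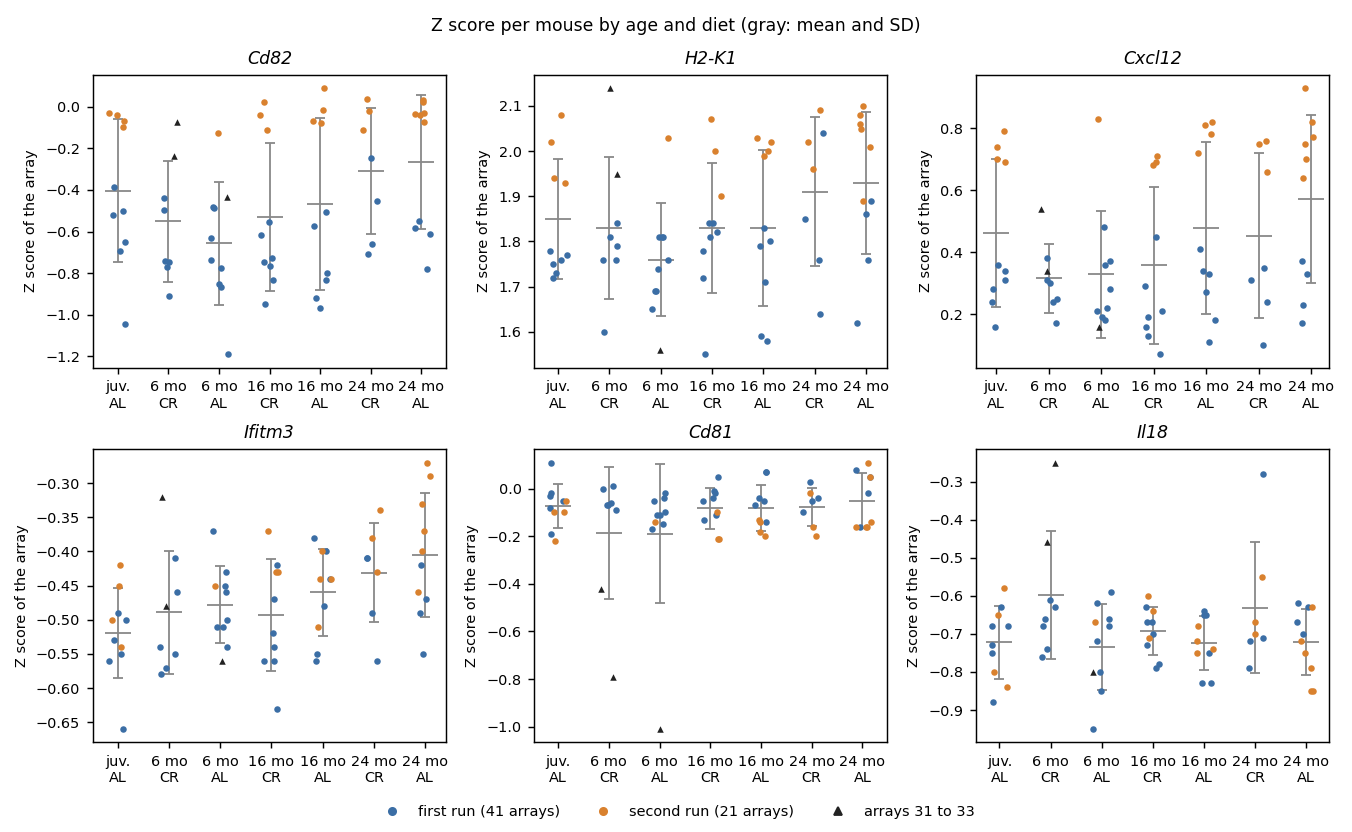
Z score (vertical axis) of Cd82, H2-K1, Cxcl12, Ifitm3, Cd81 and Il18 in each mouse by age and diet (horizontal axis, CR left of AL at each adult age); blue points are first-run filters, orange points second-run filters, black triangles filters 31 to 33, and gray bars the mean and SD of each group of 7 to 10 mice. In Cd82, H2-K1 and Cxcl12 the orange points lie mostly above the blue ones in the groups that hold both, the 6-month CR group holds no orange point, and 6 of the 10 AL mice of 24 months are orange.

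Of the antigen-presentation genes, H2-K1, a classical class I heavy chain, had Z scores of 1.62, 1.95 and 2.10 (lowest, median, highest) in AL mice of 24 months, against 1.56, 1.75 and 2.03 in AL mice of 6 months. The means differed by 0.177 ± 0.0697 Z (SE, adjusted p = 0.338), with 9 of 10 older mice above the mean of the younger and the groups overlapping. Within the first run the difference was 0.0375 Z, within the second 0.00167 Z, and run-adjusted 0.0336 Z (unadjusted p = 0.428). The other 3 showed no common direction. H2-DMa, a chain of the chaperone that loads class II molecules, averaged -0.964 ± 0.127 in AL mice of 24 months and -1.03 ± 0.0980 in those of 6 months (SD, n = 10 each). The difference was 0.0640 Z with a 95% interval of -0.0704 to 0.198. Cd74, the class II invariant chain, averaged -0.0570 ± 0.159 and -0.0260 ± 0.159 at these ages, a difference of -0.0310 Z (-0.170 to 0.108). H2-T10, a nonclassical class I gene, differed by -0.0450 Z (-0.226 to 0.136); spots of such class I genes can share label with near-identical family members, so the values of H2-K1 and H2-T10 may not belong to single genes.

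Interferon and STAT genes gave 5 positive and 3 negative differences between 24 and 6 months AL. Ifitm3, which blocks the fusion of enveloped viruses with endosomes, had Z scores of -0.550, -0.410 and -0.270 (lowest, median, highest) in AL mice of 24 months, against -0.560, -0.480 and -0.370 in those of 6 months. The difference was small, 0.0730 ± 0.0363 Z (SE, adjusted p = 0.382), and run-adjusted 0.0247 Z (unadjusted p = 0.448). Its paralog Ifitm2 had a difference of the opposite sign, with 0.960, 1.46 and 2.11 in AL mice of 24 months against 0.960, 1.98 and 2.05 in those of 6 months (-0.243 ± 0.150 Z, SE, adjusted p = 0.464). Ifitm2 was among the genes that did not overlap between the runs, and its run-adjusted difference was -0.0412 Z. Ifngr2, the second chain of the interferon gamma receptor, differed by 0.05 ± 0.0306 Z, Irf2bpl, named for its likeness to a partner of Irf2, by -0.134 ± 0.0948 Z, and Irf9, which binds DNA in the complex that answers type I interferons, by -0.0760 ± 0.0694 Z (SE; adjusted p = 0.461, 0.531 and 0.626 in this order). The last 2 were of the other sign after run adjustment, at 0.00818 and 0.0741 Z. Stat3, the main STAT of interleukin-6 signalling, averaged 0.187 ± 0.121 in AL mice of 24 months and 0.187 ± 0.107 in those of 6 months (SD, n = 10 each), with a 95% interval of the difference of -0.0847 to 0.0854 Z. Stat6, which acts downstream of interleukin-4, and Ifi27, an interferon-induced mitochondrial protein, differed by 0.0290 and 0.00300 Z.

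RefSeq promoter windows were searched for the motifs of these pathways. Windows of 300 bases (250 before to 50 after each transcript start, build GRCm38.p6) were matched by symbol for 30 of the 37 genes, as 44 windows. The interferon-stimulated response element, searched as GAAA, any 2 bases and GAAA on both strands, was present in 2 of them, those of Ifitm2 and Ifitm3 (4.55% of the member windows, against 3.44% of all 32851). The gamma-activated site bound by STATs, searched as TTC, any 3 bases and GAA on both strands, was present in 5 windows (11.4%, against 8.30% of all), of Cd160, Cd82, Ifitm3, Nfkb2 and Tnfrsf19. The kB motif of NF-kB, searched on both strands, was present in 10 windows (22.7%, against 8.46% of all), of Ccl27a, Cd151, Cd160, H2-K1, Ifitm3, Ifngr2 and Nfkb2. Windows of 1 gene overlap, in Ifitm3 the gamma-activated site overlaps the second response element, and a match of letters is not a bound site. The following stretches, 130 bases before to 30 after the start and read 5′ to 3′ on the gene's strand, are shown because the paralogs Ifitm3 and Ifitm2 hold the only response elements found and H2-K1 was the class I gene with the largest difference; capitals mark the response elements in the Ifitm genes and the kB motif in H2-K1.
Ifitm3, chr7:141010715-141010874, minus strand: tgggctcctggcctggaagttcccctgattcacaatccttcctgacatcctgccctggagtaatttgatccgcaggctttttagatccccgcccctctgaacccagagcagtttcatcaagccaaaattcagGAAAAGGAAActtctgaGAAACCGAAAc
Ifitm2, chr7:140955932-140956091, minus strand: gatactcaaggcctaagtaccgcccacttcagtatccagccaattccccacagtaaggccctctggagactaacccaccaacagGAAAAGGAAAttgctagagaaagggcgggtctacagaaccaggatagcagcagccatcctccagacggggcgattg
H2-K1, chr17:34000318-34000477, minus strand: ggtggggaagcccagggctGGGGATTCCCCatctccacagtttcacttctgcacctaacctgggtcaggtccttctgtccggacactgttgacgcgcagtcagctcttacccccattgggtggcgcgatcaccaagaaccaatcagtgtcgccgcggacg
Ifitm3 and Ifitm2, whose stretches share one response element letter for letter, had differences of opposite sign between 24 and 6 months AL, neither past the test.

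Cxcl12, a chemokine of meninges, vessels and glia that binds Cxcr4, had Z scores of 0.170, 0.670 and 0.930 (lowest, median, highest) in AL mice of 24 months, against 0.160, 0.250 and 0.830 in those of 6 months. The difference was 0.243 ± 0.108 Z (SE, adjusted p = 0.342), with 8 of 10 older mice above the mean of the younger. Cxcl12 was also the single immune gene of 37 that met the selection rule of the study between these ages, beside 1.75% of all rows. For aging, the study itself used the intervals from 6 to 16 and from 16 to 24 months. In those AL intervals 0 of the 37 met the rule, beside 0.938% and 0.861% of all rows. The rule asked for a mean Z above 0 and a difference of at least 1.5 SD of all differences. It also asked for an unadjusted p under 0.05, here from a t-test between the groups. The study's further ANOVA step was not applied. Within the first run, however, the difference was -0.0112 Z (4 against 8 mice), within the second -0.0617 Z (6 against 1), and run-adjusted -0.00767 Z (unadjusted p = 0.862). The skin-homing chemokine Ccl27a averaged 1.19 ± 0.0868 at 24 months and 1.16 ± 0.0854 at 6 months AL (SD, n = 10 each), a difference of 0.0250 Z (95% interval, -0.0672 to 0.117).

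The 3 genes of the TNF and NF-kB names had differences of like size, between 0.0810 and 0.0970 Z. Nfkb2, the p100 precursor of the noncanonical NF-kB subunit p52, averaged -0.339 ± 0.109 in AL mice of 24 months and -0.429 ± 0.112 in those of 6 months (SD, n = 10 each; 0.0900 ± 0.0505 Z, SE, adjusted p = 0.431), and its run-adjusted difference was 0.0691 Z (unadjusted p = 0.180). Tnfaip1, a TNF-inducible adaptor of a ubiquitin ligase, averaged 2.37 ± 0.138 at 24 months and 2.28 ± 0.107 at 6 months AL (difference 0.0810 Z, adjusted p = 0.408). Tnfrsf19, an orphan receptor also called Troy, averaged -0.738 ± 0.165 at 24 months and -0.835 ± 0.156 at 6 months AL (difference 0.0970 Z, adjusted p = 0.485; run-adjusted -0.00913 Z).

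Of the 6 interleukin and interleukin receptor genes, 1 had a positive difference and 5 a negative one between 24 and 6 months AL, with a median of -0.0545 Z (0.00643 Z after run adjustment). Il18, a cytokine released by inflammasomes, averaged -0.721 ± 0.0874 at 24 months and -0.734 ± 0.113 at 6 months AL (SD, n = 10 each; difference 0.0130 Z, 95% interval -0.0910 to 0.117). Il27ra, the receptor chain of interleukin-27, differed by -0.0970 ± 0.0979 Z (SE, adjusted p = 0.660), and run-adjusted by -0.0109 Z. Il10ra, the ligand-binding chain for interleukin-10, differed by -0.00600 Z (-0.176 to 0.164), Il3ra, the interleukin-3 receptor alpha chain, by -0.104 Z (-0.328 to 0.120), and Il1rl2, the interleukin-36 receptor, by -0.0120 Z (-0.113 to 0.0893). The spot of Il17rc, a chain of the interleukin-17 receptor, was dim and variable, and its interval was the widest of the set (-0.450 to 0.208 Z).

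Of the lymphocyte and checkpoint genes, 1 of 5 had a positive difference, with a median of -0.00800 Z. Cd200, a ligand on neurons that restrains myeloid cells, differed by 0.0750 ± 0.0519 Z (SE, adjusted p = 0.522), and Cd200r3, of the family of its receptors, by -0.0530 ± 0.0543 Z (adjusted p = 0.665). Cd244a, Cd160 and Cd276, receptors and a ligand of lymphocyte control, differed by -0.00300, -0.0480 and -0.00800 Z in this order. All 6 other surface glycoproteins had a positive difference, with a median of 0.0730 Z, and that median was 0.00547 Z after run adjustment. The largest were those of Cd99l2, an adhesion protein of leukocyte traffic (0.176 ± 0.106 Z, adjusted p = 0.456), Cd93 of endothelium (0.0820 ± 0.0566 Z, adjusted p = 0.521), Cd164, a sialomucin (0.0750 ± 0.0695 Z, adjusted p = 0.632), and Cd34 of endothelium and progenitors (0.0710 ± 0.0503 Z, SE, adjusted p = 0.531). Run-adjusted, these were 0.0495, -0.0335, 0.0113 and -0.000329 Z.

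**Figure D5:**
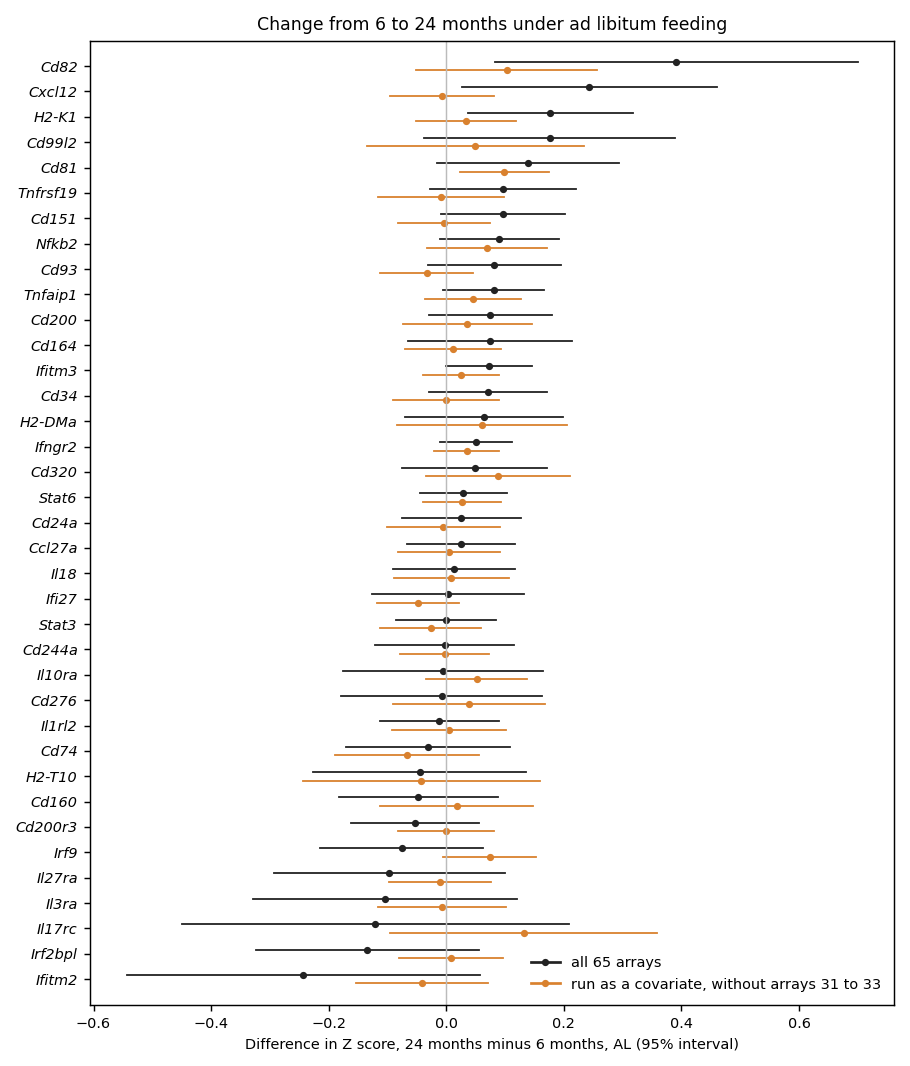
Difference in Z score between AL mice of 24 and of 6 months (horizontal axis; dot, estimate; line, 95% interval) for each of the 37 genes, ordered by size, from all 65 filters (black) and run-adjusted (orange). The black dots run from -0.243 (Ifitm2) to 0.391 (Cd82), and the orange dots lie nearer to 0 with shorter lines for most genes.

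Many rows, some immune genes among them, passed when filters were weighted by their precision without a term for the run. With limma's array weights estimated gene by gene, chosen after the data were seen, 9 of the 37 (24.3%) had an adjusted p under 0.05 between 24 and 6 months AL, beside 18.9% of all rows. Cd82, Cd99l2, Cxcl12 and H2-K1 were higher and Ifi27, Ifitm2, Il27ra, Il3ra and Irf2bpl lower at 24 months, with 0.542 Z for Cd82 and -0.432 Z for Ifitm2 at the ends. Of these 9, 6 (66.7%) were the genes whose runs did not overlap, beside 25.2% of the 1474 rows called in this way. Before any call, the runs did not overlap for 16.2% of the 37 genes and 4.97% of all rows. The runs were unevenly spread over these ages, so these shares are descriptions and the cause of the calls was not tested. With both weights and run adjustment, 0 of the 37 passed, beside 0.0643% of all rows.

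Between 6 months and the juvenile stage, 0 of the 37 had an unadjusted p under 0.05, beside 2.71% of all rows. H2-DMa came closest, at -1.03 ± 0.0980 in AL mice of 6 months and -1.16 ± 0.188 in juveniles (SD, n = 10 each). All 10 mice of 6 months lay above the juvenile mean, and the difference of 0.129 ± 0.0670 Z (SE, adjusted p = 0.984) was 0.126 Z after run adjustment (unadjusted p = 0.0779). Cd82 (-0.253 Z), Cd81 (-0.117 Z), Ifi27 (-0.0950 Z), Irf2bpl (0.138 Z) and Il17rc (0.223 Z) followed, each with an adjusted p of 0.984, and run-adjusted these were -0.0913, -0.0571, -0.0263, 0.0694 and -0.00900 Z. Run-adjusted, 1 of the 37 (2.70%) had an unadjusted p under 0.05, beside 3.93% of all rows. Without filter 33 alone, Cd81, Ifi27 and Il17rc differed by -0.0275, -0.000250 and 0.0222 Z.

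Between 16 and 6 months AL, 1 of the 37 (2.70%) had an unadjusted p under 0.05, beside 13.3% of all rows (5.28% with a positive and 8.03% with a negative difference). This was Ifngr2, with Z scores of 1.07, 1.15 and 1.27 (lowest, median, highest) in AL mice of 16 months, against 0.840, 1.10 and 1.18 in those of 6 months. The lowest younger mouse was that of filter 33, and 9 of 10 older mice lay above the younger mean. The difference was 0.0800 ± 0.0306 Z (SE, adjusted p = 0.338), and run-adjusted 0.0599 Z (unadjusted p = 0.0285, adjusted p = 0.718). H2-T10 (-0.174 Z), Cd151 (0.0970 Z), Cd164 (0.125 Z), Irf9 (-0.123 Z) and Cd276 (-0.136 Z) had adjusted p-values of 0.387 to 0.463. Run-adjusted, the difference of H2-T10 was -0.172 Z, and those of Cd151, Cd164, Irf9 and Cd276 were 0.0182, 0.0497, 0.00468 and -0.0661 Z. Without filter 33 alone, Cd151, Cd164, Irf9 and Cd276 differed by 0.0512, 0.0323, -0.0290 and -0.0313 Z, and Ifngr2 by 0.0525 Z. After run adjustment 3 of the 37 (8.11%) had an unadjusted p under 0.05, beside 6.72% of all rows.

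Between 24 and 16 months AL, 1 of the 37 (2.70%) had an unadjusted p under 0.05, beside 2.00% of all rows (0.835% with a positive and 1.17% with a negative difference), and this was Cd99l2. Its Z scores were -1.48, -1.13 and -0.740 (lowest, median, highest) at 24 months, against -1.99, -1.40 and -1.01 at 16 months. The difference of 0.294 ± 0.106 Z (SE, adjusted p = 0.956) was 0.217 Z within the first run (4 mice against 6), 0.192 Z within the second (6 against 4) and run-adjusted 0.234 Z (unadjusted p = 0.00882, adjusted p = 0.644). Ifitm2 differed by -0.278 ± 0.150 Z (SE, adjusted p = 0.956), by -0.0600 Z within the first run, by -0.251 Z within the second and run-adjusted by -0.157 Z (unadjusted p = 0.00412, adjusted p = 0.583). Ifitm3 (0.0550 Z), Cd276 (0.128 Z), Il3ra (-0.161 Z) and Cd74 (-0.100 Z) also ranked among the first 6, each with an adjusted p of 0.956. After run adjustment 3 of the 37 (8.11%) had an unadjusted p under 0.05, beside 7.48% of all rows.

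Between 24 and 6 months CR, 2 of the 37 (5.41%) had an unadjusted p under 0.05, beside 8.75% of all rows (2.24% with a positive and 6.52% with a negative difference). Irf9 averaged 0.574 ± 0.0627 in the 7 CR mice of 24 months and 0.751 ± 0.122 in the 8 of 6 months (SD), a difference of -0.179 ± 0.0820 Z (SE, adjusted p = 0.518); all 7 older mice lay below the younger mean, though the groups overlapped. Il17rc had Z scores of -2.12, -1.93 and -1.77 (lowest, median, highest) at 24 months CR, against -2.42, -1.78 and -0.570 at 6 months CR, the last on filter 31. Its difference of -0.401 ± 0.194 Z (SE, adjusted p = 0.548) was -0.116 Z after run adjustment, and that of Irf9 -0.0724 Z. Cd151 (0.124 Z), Nfkb2 (0.114 Z), Il10ra (-0.155 Z) and Cd93 (0.101 Z) had adjusted p-values of 0.570 to 0.705. No CR mouse of 6 months belonged to the second run, so no second-run value exists for this comparison. Over the shorter intervals, Il17rc (-0.396 Z), Cd164 (0.158 Z) and Ccl27a (-0.0907 Z) ranked first between 16 and 6 months CR, where 2 of the 37 (5.41%) had an unadjusted p under 0.05, beside 6.87% of all rows (4.30% with a positive and 2.57% with a negative difference). Ccl27a (0.113 Z), Stat3 (0.0879 Z) and Cd93 (0.103 Z) ranked first between 24 and 16 months CR, with 1 of the 37 (2.70%), beside 5.29% of all rows (2.60% with a positive and 2.70% with a negative difference). Run-adjusted, the counts were 4 of the 37 (10.8%) between 24 and 6 months CR, 0 between 16 and 6 months CR and 6 (16.2%) between 24 and 16 months CR, beside 17.1%, 3.70% and 17.4% of all rows. Without the CR male of filter 31, Il17rc differed by -0.191 Z between 24 and 6 months and by -0.187 Z between 16 and 6 months. The change from 6 to 24 months was not shown to differ between CR and AL mice: 0 of the 37 passed, 0 had an unadjusted p under 0.05, beside 1.54% of all rows, and the widest of the 3 best ranked genes was Irf2bpl at 0.201 ± 0.147 Z (SE, adjusted p = 0.999), ahead of Ifngr2 (-0.0628 Z) and Il10ra (-0.149 Z). After run adjustment 4 of the 37 (10.8%) had an unadjusted p under 0.05 here, beside 9.23% of all rows. The comparisons of age share their 6-month, 16-month and 24-month mice, so their values are not independent of each other.

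For CR against AL over the 3 ages, Il18 had the smallest p. At 6 months its Z scores were -0.760, -0.645 and -0.250 (lowest, median, highest) in 8 CR mice, against -0.950, -0.700 and -0.590 in 10 AL mice. At 16 months they were -0.790, -0.685 and -0.60 in CR mice, against -0.830, -0.730 and -0.640 in AL mice, and at 24 months -0.790, -0.700 and -0.280 in CR mice, against -0.850, -0.710 and -0.620 in AL mice. The highest CR mouse at 6 months (filter 32) and at 24 months (filter 11) stood above all AL mice, and the groups overlapped at each age. Without filter 11 the difference at 24 months was 0.0260 Z, against 0.0977 Z with it. Over the 3 ages the difference was 0.0871 ± 0.0319 Z (SE, unadjusted p = 0.00843, adjusted p = 0.432), and run-adjusted 0.0569 Z (unadjusted p = 0.0587). Il3ra (0.145 ± 0.0688 Z, adjusted p = 0.470) and Ccl27a (0.0580 ± 0.0283 Z, SE, adjusted p = 0.472) were the other immune genes with an unadjusted p under 0.05 over the 3 ages, which makes 3 of the 37 (8.11%) beside 10.5% of all rows (7.40% with a positive and 3.08% with a negative difference). After run adjustment 0 of the 37 were under it, beside 5.08% of all rows.

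At 6 months, 1 of the 37 (2.70%) had an unadjusted p under 0.05 for CR against AL, Il18 at 0.132 ± 0.0560 Z (SE, adjusted p = 0.582), beside 7.70% of all rows (4.72% with a positive and 2.98% with a negative difference). Ifngr2 (0.0640 Z), Ccl27a (0.0897 Z), Tnfaip1 (0.0803 Z), Cd34 (0.0827 Z) and Il3ra (0.181 Z) followed. Filters 31 to 33 all belong to this comparison, and run-adjusted the 6 differences were 0.0427, 0.0250, 0.00110, 0.0118, 0.0209 and 0.0402 Z. At 16 months, 0 of the 37 had an unadjusted p under 0.05, beside 0.797% of all rows, and the first 6 were H2-T10 (0.135 Z), H2-DMa (-0.100 Z), Tnfrsf19 (-0.0750 Z), Cd99l2 (0.124 Z), Cxcl12 (-0.119 Z) and Tnfaip1 (0.0410 Z).

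At 24 months, 1 of the 37 (2.70%) had an unadjusted p under 0.05, Cd200r3, beside 7.35% of all rows (5.36% with a positive and 1.99% with a negative difference). The males of the CR group were younger here than those of the AL group. Cd200r3 had Z scores of -0.610, -0.350 and -0.180 (lowest, median, highest) in 7 CR mice, against -0.650, -0.475 and -0.390 in 10 AL mice. The difference of 0.135 ± 0.0602 Z (SE, adjusted p = 0.636) was 0.192 Z within the first run (4 mice against 4) and 0.00333 Z within the second (3 against 6). After run adjustment 7 of the 37 (18.9%) were under an unadjusted p of 0.05, beside 18.4% of all rows, and 0 under an adjusted one. Il3ra (0.224 Z), Stat3 (0.0842 Z), Ccl27a (0.0874 Z), Il18 (0.0977 Z) and Ifitm2 (0.259 Z) had adjusted p-values of 0.636 to 0.655. Without 1 CR male of 24 months (filter 11), the differences of Il18, Il3ra and Ccl27a were 0.0260, 0.146 and 0.0483 Z. Il3ra and Ifitm2, which did not overlap between the runs, had run-adjusted differences of 0.150 and 0.147 Z (unadjusted p = 0.00966 and 0.0135, adjusted p = 0.144 and 0.163).

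Between adult males and females, of the 37 genes 0 had an unadjusted p under 0.05, beside 3.51% of all rows, and all 37 intervals lay within 0.3 Z of 0. Ifitm3 averaged -0.476 ± 0.0724 in 26 males and -0.445 ± 0.0845 in 29 females (SD), a difference of -0.0357 ± 0.0223 Z (SE, adjusted p = 0.991). Cd164 differed by -0.0679 Z and Il1rl2 by 0.0488 Z, each with an adjusted p of 0.991. The sex difference of the change from 6 to 24 months AL, led by Stat6 (0.118 Z), Ifi27 (0.206 Z) and Il10ra (-0.260 Z), and that of the CR effect, led by Cd244a (0.135 Z), Ifi27 (0.140 Z) and Cd200r3 (0.113 Z), had 0 of 37 genes under an unadjusted p of 0.05, beside 1.17% and 3.29% of all rows. Without filter 33, the first 3 values were 0.0600, 0.0165 and -0.0340 Z for Stat6, Ifi27 and Il10ra, and run-adjusted 0.0707, 0.0338 and -0.0562 Z. The run-adjusted sex differences of the CR effect were 0.0543, 0.0791 and 0.0617 Z for Cd244a, Ifi27 and Cd200r3, and again 0 of 37 were under that p in both, beside 1.21% and 2.35% of all rows.

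Other genes of the same pathways gave no calls either. Of 3 further genes of antigen processing, 8 of the interferon response, 12 of JAK and SOCS signalling and 12 of Toll-like receptor, TNF and NF-kB signalling, 0 had an adjusted p under 0.05 in any of the 15 comparisons. Between 24 and 6 months AL, their medians were 0.0760, 0.0220, -0.00100 and 0.0225 Z in this order. The largest differences were those of Psme1, a proteasome activator subunit (-0.312 Z), Isg20, an interferon-induced exonuclease (0.321 Z), and Birc3, an inhibitor of cell death and NF-kB target (0.230 Z). Of the markers of microglia and macrophages, 2 of 9 passed between 24 and 6 months AL, beside 0.0643% of all rows. The list was chosen with earlier results of these data known, so this share is a description and no test of these cells. These were the complement chain C1qa (0.286 ± 0.0618 Z, adjusted p = 0.0436) and the lysosomal protease Ctsd (0.444 ± 0.0927 Z, SE, adjusted p = 0.0346). Of the 9 markers, 8 had a positive difference, and the median of the 9 was 0.120 Z. The mean Z of the 9 markers ranged from 0.221 to 0.331 in AL mice of 24 months and from -0.354 to 0.205 in those of 6 months, the lowest on filter 33. Run-adjusted, Ctsd passed (0.332 Z, adjusted p = 8.22e-05) and C1qa did not (0.244 Z, adjusted p = 0.0776). The part of these cells in the values of the immune genes was not tested. No lymphocyte marker of the list was measured, and the 5 neuronal markers averaged 0.983 (Nefl), 0.533 (Uchl1), -0.165 (Gap43), -0.251 (Calb1) and -0.292 (Slc17a6), at the percentiles 85.3, 72.5, 44.1, 40.6 and 38.7 of all rows.

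Over the 65 filters, the deviations from the group means correlated most for Il27ra with Il3ra (r = 0.938), Ifitm2 with Il27ra (0.903), Ifitm2 with Il3ra (0.890), Ifitm2 with Irf2bpl (0.859) and Cd82 with H2-K1 (0.828). The median over all 666 pairs was 0.00105. With the run removed and without filters 31 to 33, the same 5 pairs had r = 0.644, 0.386, 0.460, 0.0984 and 0.469 over 62 filters, and 22 of the 666 pairs were above 0.5, against 64 before. The highest then was Cd34 with Tnfaip1 (0.829). All points share filters, so these are descriptions with no p.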

How the data were processed

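Total RNA of each spinal cord was labelled with radioactive dCTP (33P per the labels, 32P in the methods of the study) and hybridized to the B filter of the NIA mouse 17K cDNA set (a nylon filter of spotted clones). The deposited values are Z scores that the authors computed within each filter after reading intensities; the log base and background treatment are not given in the sources used here. Every filter had mean 0 and SD 1 over its spots, at 2 decimals. The authors averaged no mice, and 65 of the 67 mice of the design were analysed here. For 1 filter the description label repeated that of another; it was placed by its title.

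Genes came from the platform annotation: 4875 spots had 1 symbol, 224 several and 3349 none. Spots of a gene were averaged, others kept as rows, giving 7782. Spots with several symbols (6 matched the rule) were not used. limma 3.58.1 (R 4.3.3) fitted 14 means (age, diet and sex) on 65 filters, with Benjamini-Hochberg adjustment over all rows and a threshold of 0.05; 51 residual degrees of freedom remained. The script was tested on simulated data. The members and lists were chosen with earlier results of these data known. Named were each passing gene; the 20 smallest p-values for 24 against 6 months AL; the 6 smallest for the other AL intervals, 24 against 6 months CR and CR against AL at each age; 3 elsewhere; the 8 highest and 8 lowest levels; and the 5 most correlated pairs. Alternatives were spots without averaging, a term for the run and no filters 31 to 33 (run-adjusted), and no filters 31 to 33. Another was the round as a block (5 passes of the filter numbers through the groups, inferred from those numbers and named by no label). Centring on 22 filter positions, array weights, rows of mean Z above 0 and quantile normalization were also used. So were the study's rule without its ANOVA step, a t-test between the groups and leaving out each mouse. Promoter windows came from RefSeq (GRCm38.p6). Figures used Python 3.11.15 and matplotlib 3.10.9.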

Additional observations from a re-analysis of the deposited data

Results flagged for a closer look

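Within 10.0% of the 259 groups of mice examined (37 genes in 7 groups of age and diet), 1 mouse lay far from the others by Dixon's criterion. This gave 26 values, 18 of them on filters 31 to 33 and 16 on filter 33 alone. The 37 genes share the same filters, so the groups are not independent and the percentage is not set against a chance rate. In the AL group of 6 months, filter 33 was the lowest for Cd164 (-1.39), Cd200 (-0.53), Cd244a (0.77), Cd24a (-0.835), Cd34 (1.54), Cd81 (-1.01), Ifi27 (-0.15), Ifngr2 (0.84), Il27ra (0.31), Il3ra (0.28) and Tnfaip1 (2.00), and the highest for Cd160 (-0.23), Cd276 (0.62), Il10ra (2.02), Il17rc (0.04) and Irf9 (1.6). In the CR group of 6 months, filter 32 was the lowest for Cd151 (-0.27), filter 31 the highest for Cd93 (0.18) and filter 18 the lowest for Stat3 (0.0133). Filter 34, the only AL filter of 6 months in the second run, was the highest of its group for Cxcl12 (0.83) and H2-K1 (2.03). The other 5 were Cd74 (-0.35) and H2-T10 (-0.33), lowest on filter 62 at 16 months CR, Cd24a (-0.83), lowest on filter 37, and Nfkb2 (-0.15), highest on filter 51, both at 16 months AL, and Stat6 (0.00), highest on filter 11 at 24 months CR. Without filters 31 to 33 the count of immune genes past the test stayed at 0 of 37 in all 15 comparisons.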

How the results depend on the processing

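The count of immune genes past the test was 0 in each of the 15 comparisons. It stayed at 0 without averaging of spots, in the run-adjusted fit, without filters 31 to 33 and with the round as a block. The same held with centring on 22 positions and after quantile normalization. So it did in rows of mean Z above 0, although that fit left out the immune genes below this level. It also held in the adjusted t-test between the groups and without any single mouse. In 24 against 6 months AL the count moved to 10 with limma's default array weights (22.2% of all rows), an estimate that stopped short of convergence. It moved there to 9 with weights estimated gene by gene (18.9%) and to 9 with these weights and without filters 31 to 33 (19.2%). Under the study's rule without its ANOVA step it was 1 (1.75%). In 24 against 16 months AL it moved to 1, Cd99l2, with the default weights (0.501%). The gene-by-gene weights, with or without the run and filters 31 to 33, were chosen after seeing the data; with the run beside them the count was 0. The weights ranged from 0.0358, on filter 33, to 2.86.

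Of the 83 differences named, these turned sign, in Z. Run-adjusted, in 24 against 6 months AL they were Cxcl12 (-0.00767), Cd151 (-0.00391), Tnfrsf19 (-0.00913), Cd93 (-0.0335), Cd34 (-0.000329), Irf2bpl (0.00818) and Irf9 (0.0741); Irf9 did so in 16 against 6 months AL (0.00468) and Il17rc in 6 months against juvenile (-0.00900). With gene-by-gene weights added they were Cxcl12 (-0.0143), Cd151 (-0.00659), Cd200 (-0.0166), Tnfrsf19 (-0.0241), Cd93 (-0.0386), Ifitm2 (0.0138), Il27ra (0.00442), Irf2bpl (0.00803) and Irf9 (0.0652), with Irf9 (0.0200) and Il17rc (-0.0116) as before. Cd164 in 24 against 6 months AL turned with default weights (-0.00907), gene-by-gene weights (-0.00740), these without filters 31 to 33 (-0.00934), without filters 31 to 33 alone (-0.0178) and with centring on positions (-0.000500). Centring also turned Ifngr2 (-0.0280) and Cd34 (-0.00700) there, and Ccl27a (-0.0142 at 24 months, -0.00224 over the 3 ages) and Il18 (-0.00396 at 24 months) in CR against AL. Default weights turned Il10ra (0.00367) in the sex difference of the change with age, and the absence of filters 31 to 33 turned Irf9 in 24 against 6 months AL (0.0180). When single mice were left out there, Irf9 ranged from -0.130 to 0.0180 and Cd164 from -0.0177 to 0.101, turning sign without the AL male of filter 33. The cause was not tested. The labels carry no replicate numbers to pair mice by, and the block of rounds, inferred from the filter numbers, moved no count.

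Precision was limited by 7 to 10 mice a group and by the filters: the median 95% interval of an immune gene reached 0.130 Z to either side for 24 against 6 months AL, from 0.0613 Z for Ifngr2 to 0.329 Z for Il17rc.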
